A study of Mus musculus with 24 samples.

Results

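The interferon-stimulated genes of mouse liver and the interferon regulatory factors (IRFs) were followed through a high-fat diet (HFD) and a herbal treatment. The genes were chosen by symbol: the Ifit, Ifi, Oas, Gbp and Irgm families, the Irf genes, symbols that begin with Isg, and Mx1, Stat2, Ifih1 and others of the same pathway, such as Usp18, Rtp4, Rsad2 and Zbp1. The rule found 68 of the 18314 genes in the table, and 63 of these had enough reads to be tested among 13832 tested genes. The other 5 were Ifit1bl2, Ifi214, Ifi44l, Oas1e and Oas1f, with 17, 15, 6, 0 and 0 reads over 10 libraries. The rule also caught 4 genes that only share the letters of the name, Irf2bp1, Irf2bp2, Irf2bpl and Isg20l2, which are counted but described no further.

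All mice were male, wild type and C57BL/6, and their age is not given in the labels. The control group ate a normal diet. The HFD and HFD plus HQHF groups ate a high-fat diet, with 12 weeks before gavage given for both. The HFD plus HQHF group then received Huatanqushihuoxue Formula (HQHF), a Chinese herbal formula, by gavage. The study formed a low-dose, a medium-dose and a high-dose HQHF group, and the labels do not say which dose stands behind these libraries. RNA came from whole liver, 4 libraries per group. One control library and one HFD plus HQHF library (number 2 and number 3) held almost no transcript of the hepatocyte gene Alb, at 46.4 and 0.743 CPM (read counts scaled to a common library size) against 35050 to 92210 in the others, and were left out. The comparisons therefore rest on control libraries 1, 3 and 4, HFD libraries 1 to 4, and HFD plus HQHF libraries 1, 2 and 4, with 36198931 to 46454404 counted reads each. Levels are CPM on library sizes scaled by the TMM method, and a gene was called higher or lower at an adjusted p under 0.05 in edgeR's quasi-likelihood test. The p-values measure the spread between these libraries only.

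Cells that sense foreign or misplaced nucleic acids secrete type I interferons, which bind the IFNAR1 and IFNAR2 receptor on neighbouring cells. The kinases JAK1 and TYK2 then activate STAT proteins, which join IRF9 in the complex ISGF3 and switch on antiviral genes through a DNA element called ISRE. Interferon gamma acts mainly through pairs of STAT proteins at a different element, GAS, and is a strong inducer of guanylate-binding proteins (GBPs) and immunity-related GTPases (IRGMs). In liver, hepatocytes, Kupffer cells and incoming macrophages all respond, and macrophages also carry IRF5 and IRF8 as part of their identity.

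The promoters of these genes were searched for the letters of both elements. Windows of 300 bases (250 before and 50 after a start site; RefSeq, GRCm38.p6) were on hand for 51 of the 68 genes. The letters GAAANNGAAA, searched on both strands as an ISRE core, stood in 49.2% of the 61 windows of these genes and in 3.44% of all 32851 windows. By gene, the letters were present in 7 of 7 GBP and IRGM genes, 8 of 9 PYHIN genes, 5 of 6 IFIT genes, 4 of 7 OAS genes, 3 of 4 antiviral effectors and 1 of 1 STAT gene (Stat2), and in 1 of 8 IRF genes (Irf2) and 0 of 5 other Ifi genes. The GAS letters TTCNNNGAA were in 18.0% of the windows of these genes against 8.3% of all windows, among them Irf1 and Irf8. The stretches below belong to genes whose levels are described further on. Capitals mark 1 match per stretch, in either orientation, and further matches that a stretch holds, as in Ifit1, Isg15 and Irf8, stay in lower case. Each stretch is written on the strand of its gene. Gbp2 and Gbp2b are neighbours with the same 10 capital letters, Ifit3 and Ifit3b share the whole stretch, and Irf1 and Irf8 show the GAS letters.
Gbp2, chr3:142620579-142620638, plus strand: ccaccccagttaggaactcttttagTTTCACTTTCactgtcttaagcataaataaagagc
Gbp2b, chr3:142594685-142594744, plus strand: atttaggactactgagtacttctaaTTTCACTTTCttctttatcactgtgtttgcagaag
Ifit1, chr19:34640760-34640819, plus strand: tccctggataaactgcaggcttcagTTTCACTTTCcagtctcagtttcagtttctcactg
Ifit3, chr19:34583348-34583407, plus strand: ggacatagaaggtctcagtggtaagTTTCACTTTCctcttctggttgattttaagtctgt
Ifit3b, chr19:34607744-34607803, plus strand: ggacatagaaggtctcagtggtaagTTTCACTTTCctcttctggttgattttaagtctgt
Isg15, chr4:156200856-156200915, minus strand: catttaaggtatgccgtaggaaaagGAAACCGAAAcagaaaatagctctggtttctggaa
Oas3, chr5:120777700-120777759, minus strand: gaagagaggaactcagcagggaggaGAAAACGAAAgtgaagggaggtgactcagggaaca
Irf1, chr11:53769899-53769957, plus strand: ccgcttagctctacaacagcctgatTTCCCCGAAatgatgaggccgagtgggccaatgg
Irf8, chr8:120736162-120736220, plus strand: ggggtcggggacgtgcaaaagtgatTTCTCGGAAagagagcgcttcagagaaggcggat
These matches are letters in a window and no binding was measured. Overlapping matches were each counted, and a gene counted once. The ISRE matches of Ifit1 and Ifit1bl2 lie on the same bases, read on opposite strands, and were counted for both genes.

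**Figure D1:**
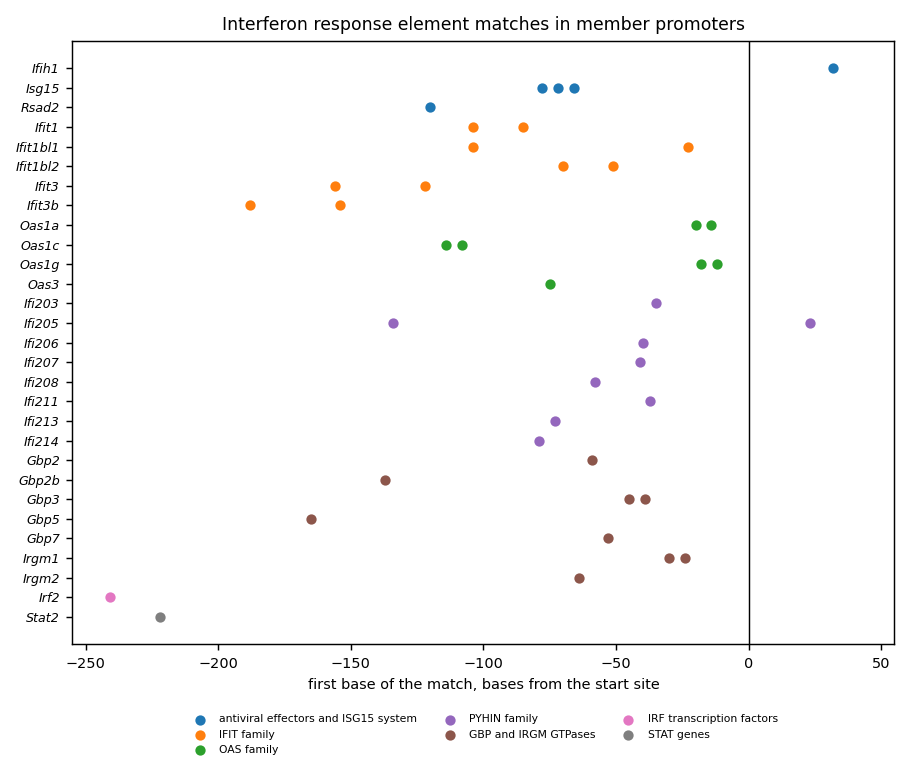
Position of each ISRE match (x axis, bases from the start site at 0) for the 29 genes with at least 1 match (y axis), with colours for gene classes. Most points lie before the start site, and those of the PYHIN family run from -134 to 23.

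On the high-fat diet, 21 of the 63 tested interferon genes were called higher, among them Ifi27l2b, Irf5, Irf8, Usp18 and Mx1, and 1, Gbp2b, was called lower. That is 33.3% higher, where 16.3% of all tested genes were called higher and 9.89% lower. The median log2 fold change was 0.73, against 0.06 over all tested genes, and 56 of the 63 values were positive. Every HFD library lay above every control library for 28 of them (44.4%, against 20.8% of all genes), and below for 1 (1.59%, against 15.9%). The count called higher changed with the libraries in the fit: it ranged from 5 to 27 when each of the 10 was left out. It was 7, 5 and 6 without control 1, 3 and 4, 10 without HFD 1 and 13 without HFD 4. Such a fit also has fewer replicates, so a lost call need not point at the library left out. Calls over all genes in these fits are not set beside these counts, so whether the range is particular to interferon genes is not shown. Control 1 also held pancreatic acinar transcripts, summed to 2310 CPM against 4.23 to 20.1 in the other 9 libraries. With the 2 libraries that lack hepatocyte transcripts put back, edgeR called 0 members in this or any other comparison. The scaling matters as well. TMM factors ran from 0.763 to 1.42, and with plain library totals the median of all genes moved to 0.66, and 54 members were then called higher and 1 lower, with a member median of 1.31. Calls over all genes are not set beside the counts with those 2 libraries put back or with plain library totals. The changes given here are relative to TMM scaling. Markers of monocytes and recruited macrophages rose beside these genes, 11 of 12 called higher, from a summed 74.9 to 107 CPM in control to 281 to 798 in HFD. Other cell lists moved as well: 6 of 9 stellate cell markers were called higher, from a sum of 337 to 427 CPM to 441 to 1270, and 6 of 6 tested neutrophil markers were called higher. The part of these cells in the interferon gene values was not tested, and in whole tissue fewer or more cells of a type and less or more RNA per cell cannot be told apart.

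**Figure D2:**
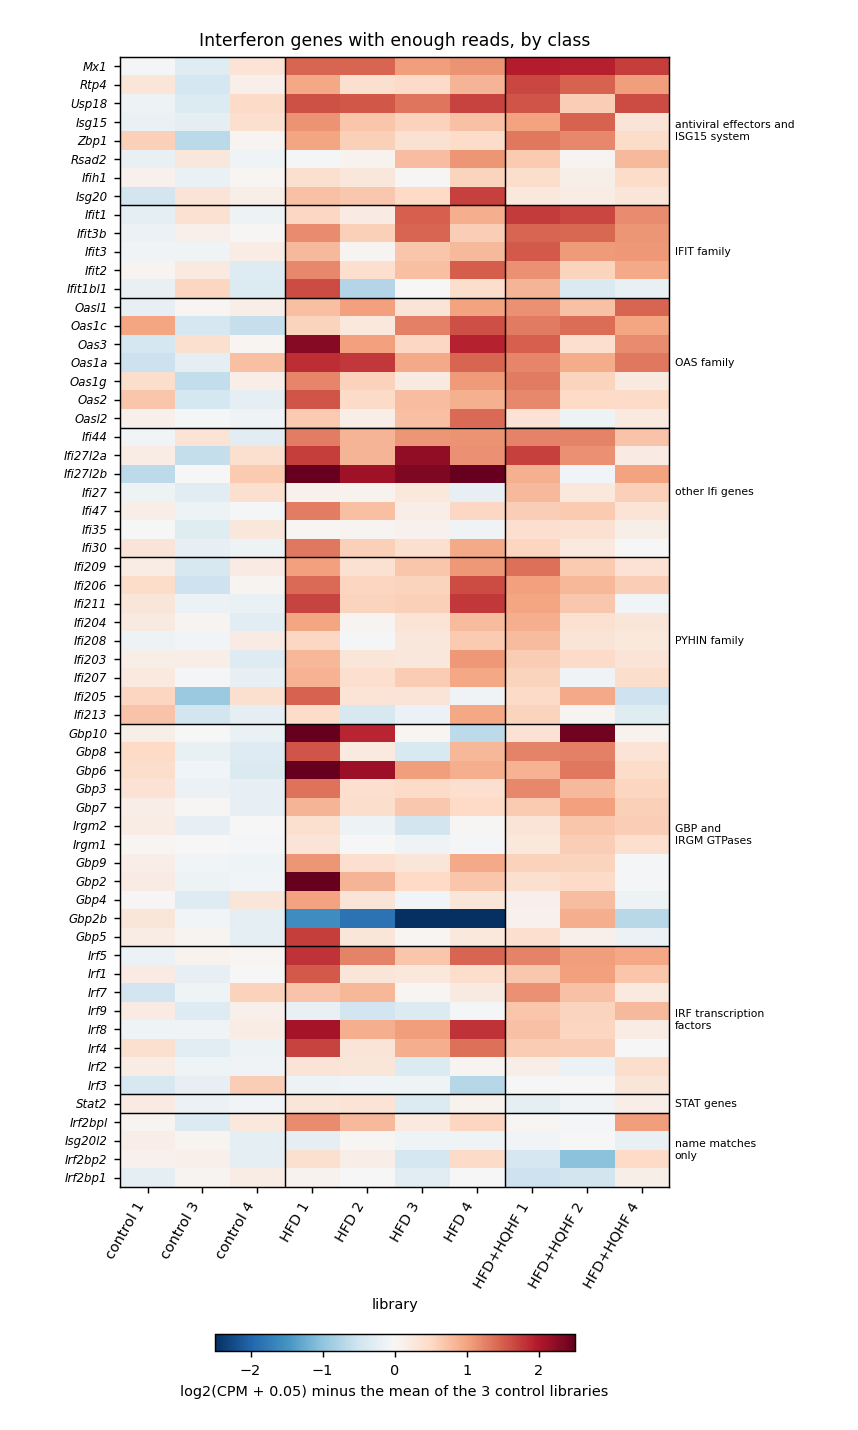
Level of 61 of the tested genes (rows, grouped by class) in each of the 10 libraries (columns), as log2(CPM + 0.05) minus the mean of the 3 control libraries, with colours ending at 2.5 in either direction. Red covers most of the HFD and HFD plus HQHF columns, the Gbp2b row is darkest blue in the HFD columns, and the Gbp2 row is darkest in HFD 1.

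In the class of 8 antiviral effectors, 2 were called higher on the diet, Mx1 and Usp18, and 6 were not called. Mx1 encodes a dynamin-like GTPase against influenza virus, and the C57BL/6 strain is known for a deletion that leaves its protein without function. Its level was 0.473, 0.384 and 0.635 CPM in the control libraries, 1.42, 1.43, 1.06 and 1.12 in the HFD libraries, and 2.04, 2.01 and 1.73 in the HFD plus HQHF libraries. The 3 groups do not overlap, and the treated libraries are the highest. Mx1 rose on the diet by a log2 fold change of 1.34 ± 0.30 (SE; edgeR adjusted p = 0.0122), a call lost without control 1 (1.30, adjusted p = 0.0503) or control 3 (1.12, adjusted p = 0.0632).

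Usp18 encodes the protease that strips ISG15 from its targets and damps the IFNAR receptor. It stood at 2.81, 2.41 and 4.32 CPM in control, 9.41, 9.12, 7.92 and 10 in HFD, and 9.22, 4.75 and 9.68 in HFD plus HQHF. All 7 libraries on the high-fat diet exceeded all controls, although HFD plus HQHF 2 lay close to control 4. The diet raised Usp18 by 1.52 ± 0.28 (log2, SE; edgeR adjusted p = 0.00597), and the call stayed when each library was left out.

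Rtp4 encodes an interferon-induced chaperone with antiviral activity. Its levels were 5.59, 3.33 and 4.95 CPM in control, 8.88, 5.97, 6.31 and 8.23 in HFD, and 14.4, 12.7 and 9.36 in HFD plus HQHF. The groups form 3 separate steps, yet the first step did not pass the test (log2 fold change 0.67 ± 0.24, edgeR adjusted p = 0.0579). Isg15, the ubiquitin-like modifier, had control libraries at 1.31, 1.26 and 1.97 CPM, HFD libraries at 3.27, 2.43, 2.22 and 2.48, and treated libraries at 3.02, 4.2 and 1.86. Control and HFD do not overlap but the difference missed the threshold (0.78 ± 0.31, edgeR adjusted p = 0.086). Zbp1, a sensor of Z-form nucleic acids, was at 4.96, 2.02 and 3.40 CPM in control and 6.52, 4.93, 4.25 and 4.49 in HFD, which overlap, and at 8.18, 7.54 and 4.45 after HQHF. Ifih1, the RNA sensor MDA5, was at 22.7, 18.8 and 21.7 against 27.9, 25.4, 21.3 and 30.9 CPM, which overlap too, and 28.4, 23.2 and 29 after HQHF. Zbp1 and Ifih1 gave log2 fold changes of 0.54 ± 0.32 and 0.33 ± 0.15 (edgeR adjusted p = 0.222 and 0.137).

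**Figure D3:**
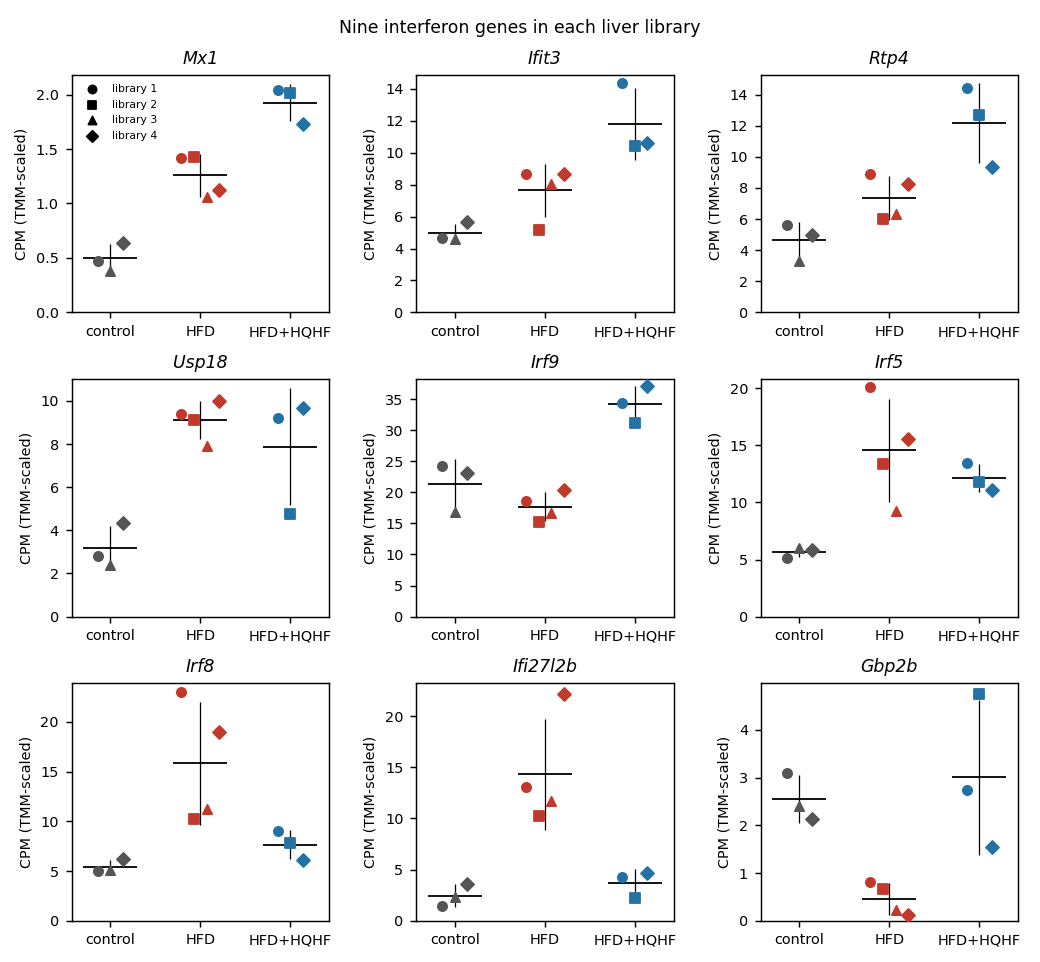
CPM (linear axes from 0) of 9 genes in the 10 libraries, by group; each point is 1 library, symbols give the library number, and lines give the group mean with 1 SD. The group means of Mx1, Ifit3 and Rtp4 climb from control through HFD to HFD plus HQHF, that of Irf9 is highest in HFD plus HQHF, those of Irf8 and Ifi27l2b are highest in HFD, and that of Gbp2b is lowest in HFD.

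The IFIT proteins bind viral RNA, and 2 of the 5 tested family members were called higher on the diet: Ifit2 (1.02 ± 0.28, adjusted p = 0.0257) and Ifit3b (1.04 ± 0.29, adjusted p = 0.0257). Ifit3, which stabilises the IFIT complex, was at 4.67, 4.61 and 5.65 CPM in control, 8.68, 5.18, 8.06 and 8.68 in HFD, and 14.4, 10.4 and 10.6 in HFD plus HQHF. HFD 2 alone fell among the controls, and the difference on the diet was 0.62 ± 0.22 (edgeR adjusted p = 0.0546). Ifit3 and Ifit3b are near copies, so reads may be split between them. Ifit1 gave 0.84 ± 0.32 (adjusted p = 0.0713).

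The OAS enzymes make the messenger that activates RNase L, and the OASL proteins are relatives without or with altered enzyme activity. This class had 4 of 7 tested genes called higher on the diet: Oas1a, Oas3, Oasl1 (0.80) and Oasl2 (0.82). Oas1a was at 1.05, 1.31 and 2.63 CPM in control, 5.68, 5.35, 3.02 and 4.30 in HFD, and 3.65, 2.97 and 3.90 in HFD plus HQHF. Neither high-fat group overlaps the controls, while the 2 high-fat groups overlap each other. The diet difference was 1.47 ± 0.34 (edgeR adjusted p = 0.0135), no longer called without control 1 (1.22, adjusted p = 0.055) or control 3 (1.25, adjusted p = 0.0662). Oas3 was at 0.683, 1.26 and 0.984 CPM in control and 4.79, 1.99, 1.37 and 3.71 in HFD, without overlap, and at 2.76, 1.28 and 2.2 in HFD plus HQHF (HFD against control 1.60 ± 0.47, edgeR adjusted p = 0.0299). The Oas3 call was lost without control 1, 3 or 4 or HFD 1 or 4 (adjusted p = 0.107, 0.0645, 0.0825, 0.0679 and 0.0587). Oas1a and Oas1g are close copies and may share reads.

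Among the GBP and IRGM genes, which act in the defence against intracellular pathogens, 4 of 12 were called higher on the diet (Gbp2, Gbp6, Gbp7 and Gbp9) and Gbp2b was called lower. Gbp2b, a GBP of the same cluster as Gbp2, was at 3.1, 2.41 and 2.13 CPM in control, 0.822, 0.662, 0.235 and 0.12 in HFD, and 2.73, 4.75 and 1.54 in HFD plus HQHF. The HFD libraries are the lowest 4 of the 10. The difference was -2.46 ± 0.58 on the log2 scale (edgeR adjusted p = 0.0143; without control 1 it was -2.30 at adjusted p = 0.0519). Gbp2, whose promoter stretch carries the same capital letters, moved the other way: 4.60, 3.64 and 3.78 CPM in control, 23.5, 7.22, 5.68 and 6.45 in HFD, and 5.31, 5.56 and 3.84 in HFD plus HQHF. All HFD libraries lie above all others, and HFD 1 is far above the remaining 3. The difference of 1.42 ± 0.47 (edgeR adjusted p = 0.0486) became 0.69 (adjusted p = 0.047) without HFD 1. The call was lost without control 1, 3 or 4 (adjusted p = 0.109, 0.148 and 0.123) or without HFD plus HQHF 1, 2 or 4 (adjusted p = 0.0709, 0.0678 and 0.0629). Gbp6 was at 3.26, 2.26 and 1.84 CPM in control and 14.4, 10.7, 4.98 and 4.54 in HFD, with no overlap, and at 4.39, 6.05 and 3.32 in HFD plus HQHF (HFD against control 1.82 ± 0.43, edgeR adjusted p = 0.0149), a call lost without control 3 (1.70, adjusted p = 0.0639) or control 4 (1.64, adjusted p = 0.0587). Its near copy Gbp10 was uneven, at 12.7 and 4.83 CPM in HFD 1 and 2, 6.89 in HFD plus HQHF 2, and 0.774 to 1.61 in the other 7 libraries. Irgm1 and Irgm2 were not called on the diet (log2 fold changes 0.05 ± 0.14 and -0.01 ± 0.20).

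HFD 1 was the highest of the 10 libraries for 23 of the 63 genes, followed by HFD 4 for 13 and HFD plus HQHF 1 for 11. HFD 1 was also the highest library for 12 of 18 tested genes of the interferon gamma list, and not for the others, among them Iigp1, Nlrc5, Psmb8, Psmb9, Igtp and Socs1. From that list, Cxcl9 at 17.2 CPM, Cxcl10 at 20.9 and Tgtp1 at 28.7 in HFD 1 were picked after their values were seen, and the other 9 libraries reached 6.76, 7.68 and 9.21. Of 12 T and NK cell markers, 9 were highest in HFD 1, while Cd4, Klrb1c and Ncr1 were highest in other libraries. As examples of the 9, Cd8a was at 3.89 CPM in HFD 1, 0.647 to 2.61 in the other HFD libraries and 0.231 to 0.473 in control. Gzma was at 3.54, 0.235 to 0.533 and 0.349 to 0.473. Without Klrb1c, the most abundant of the 12, the markers summed to 25.5 CPM in HFD 1, 3.92 to 6.28 in control and 5.57 to 13.4 in the other HFD libraries. The Ifng transcript itself was at 0.128 CPM in HFD 1, with 17 reads over all 10 libraries. Their part in the HFD 1 values was not tested.

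The PYHIN genes, a cluster of DNA-binding proteins on chromosome 1, had 2 of 9 tested members called higher on the diet, Ifi207 (0.73) and Ifi211 (1.27), and the other 7 had positive values from 0.24 to 1.11. These genes are recent copies of one another, so their counts are uncertain. The remaining Ifi genes had the highest share of calls, 5 of 7. Ifi27l2b, a small membrane protein of the Ifi27 family, was at 1.44, 2.31 and 3.62 CPM in control, 13.1, 10.2, 11.7 and 22.2 in HFD, and 4.31, 2.19 and 4.68 in HFD plus HQHF. The HFD libraries stand apart from the other 6, which overlap. It rose by 2.55 ± 0.40 (edgeR adjusted p = 0.00362), a call kept when each library was left out. Its neighbour Ifi27l2a was at 3.49, 2 and 4.03 CPM in control, 10.2, 5.55, 14.4 and 6.74 in HFD, and 10.1, 6.76 and 3.50 in HFD plus HQHF (HFD against control 1.54 ± 0.43, edgeR adjusted p = 0.0265). The highest library, HFD 3, also held the fat-cell transcript Adipoq at 29.2 CPM, where the others had at most 0.998, and without HFD 3 the difference was 1.24 (adjusted p = 0.0435). The call for Ifi27l2a was lost without control 1, control 3, control 4 or HFD 1, at 1.61, 1.23, 1.74 and 1.49 (adjusted p = 0.0748, 0.108, 0.0523 and 0.0509). The third neighbour, Ifi27, was at 57.8 ± 15 (SD, n = 3) in control and 59.4 ± 7.84 (SD, n = 4) in HFD. Ifi30, a lysosomal thiol reductase of antigen-presenting cells, rose by 0.84, Ifi44 by 1.11 and the GTPase Ifi47 by 0.73 (adjusted p = 0.0279, 0.0209 and 0.0413).

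Of the 9 IRF transcription factors, 2 were called higher on the diet, Irf5 and Irf8. Irf5, which drives inflammatory cytokines downstream of Toll-like receptors, was at 5.15, 6.05 and 5.87 CPM in control, 20.1, 13.4, 9.23 and 15.6 in HFD, and 13.5, 11.8 and 11.1 in HFD plus HQHF. Irf8, needed for monocytes and dendritic cells, was at 5.02, 5.07 and 6.16 in control, 23, 10.2, 11.2 and 19 in HFD, and 9.02, 7.80 and 6.12 in HFD plus HQHF. Both separate HFD from control fully, and only for Irf5 do the treated libraries also clear every control. The diet differences were 1.36 ± 0.24 for Irf5 and 1.55 ± 0.29 for Irf8 (edgeR adjusted p = 0.0049 and 0.00631), and both calls were kept when each library was left out.

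Irf1, the gamma-responsive activator, was at 22.2, 16.5 and 19.1 CPM in control, 55.5, 23.5, 22.9 and 26 in HFD, and 30.6, 39 and 31.1 in HFD plus HQHF. Both high-fat groups lie above control, but without HFD 1 the difference shrank from 0.73 ± 0.30 (edgeR adjusted p = 0.092) to 0.33 (adjusted p = 0.172). Irf7, the amplifier of type I interferon production, was at 15.3, 19.9 and 32.1 CPM in control, 35.1, 38.2, 22.2 and 25.1 in HFD, and 47.5, 35.4 and 25.4 in HFD plus HQHF. Irf3, a first factor downstream of RNA and DNA sensors, was at 24, 27.7 and 48.5 in control, 29.3, 29.7, 29.7 and 19.4 in HFD, and 32.1, 32.1 and 39.3 in HFD plus HQHF. Neither separated the diets (0.43 ± 0.30 and -0.31 ± 0.24, edgeR adjusted p = 0.305 and 0.362), and with plain library totals Irf3 turned to 0.32. Stat2 was at 36, 28.3 and 29.7 in control and 38.4, 39.6, 24.5 and 33.3 in HFD, with 26.8, 29.4 and 34.9 after HQHF. Control and HFD overlap (0.12 ± 0.18, edgeR adjusted p = 0.661).

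HFD plus HQHF was then compared with HFD. Of the 63, 3 were called higher (Irf9, Rtp4 and Gbp2b) and 2 lower (Irf8 and Ifi27l2b) than in HFD, or 4.76% and 3.17%, where 7.85% of all tested genes were called higher and 11.1% lower. The groups did not overlap in the higher direction for 8 genes (12.7%, against 13.5% of all genes) and in the lower direction for 4 (6.35%, against 17.2%). The median was -0.06, against -0.07 for all genes. With plain library totals, where the all-gene median was -0.62, the split was 1 higher and 25 lower, with a member median of -0.60. Calls over all genes with that scaling are not given here. DESeq2 called 7 higher and 2 lower, where of all 15032 genes with an adjusted p it called 1716 (11.4%) higher and 2102 lower. Without HFD plus HQHF 2, edgeR called 1 higher. The lower count was 1 without HFD 1, HFD 4 or any treated library.

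Irf9, the DNA-binding subunit of ISGF3, was at 24.3, 16.8 and 23.1 CPM in control, 18.6, 15.2, 16.7 and 20.4 in HFD, and 34.4, 31.1 and 37.1 in HFD plus HQHF. The treated libraries are the highest 3 of the 10, and control and HFD overlap (-0.27 ± 0.16, edgeR adjusted p = 0.225, and 0.33 with plain library totals). Against HFD, Irf9 was higher by 0.95 ± 0.16 (edgeR adjusted p = 0.0063), and the call was kept when each library was left out, at 0.88 to 1.02. With plain library totals it was 0.39 (adjusted p = 0.0717), still above the all-gene median of that scaling. Its partner Stat2 gave -0.16 ± 0.18 (edgeR adjusted p = 0.549).

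Rtp4 was higher after HQHF than in HFD by 0.73 ± 0.23 (edgeR adjusted p = 0.0479), a call at the edge: leaving out any of 7 of the 10 libraries, control 4, each HFD library and HFD plus HQHF 1 or 2, ended it, at 0.59 to 0.83 and adjusted p of 0.0547 to 0.17. Gbp2b, at 1.54 to 4.75 CPM around the control range of 2.13 to 3.1, was 2.70 ± 0.58 above HFD (edgeR adjusted p = 0.0141), and without HFD plus HQHF 2 this was 2.21 (adjusted p = 0.0635). Irf8 was lower than in HFD by -1.05 ± 0.28 (edgeR adjusted p = 0.0293). Leaving out HFD 1 gave -0.82 (adjusted p = 0.0621), and leaving out HFD 4 or HFD plus HQHF 1, 2 or 4 also ended the call (adjusted p = 0.06, 0.0697, 0.0921 and 0.0897). Ifi27l2b was lower by -1.94 ± 0.39 (edgeR adjusted p = 0.0114), and the call was kept when each library was left out. Ifit3 (0.63 ± 0.21, adjusted p = 0.0572) and Mx1 (0.61 ± 0.28, adjusted p = 0.142) were above HFD in all treated libraries without passing the test, and Usp18 gave -0.21 ± 0.27 (edgeR adjusted p = 0.603).

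**Figure D4:**
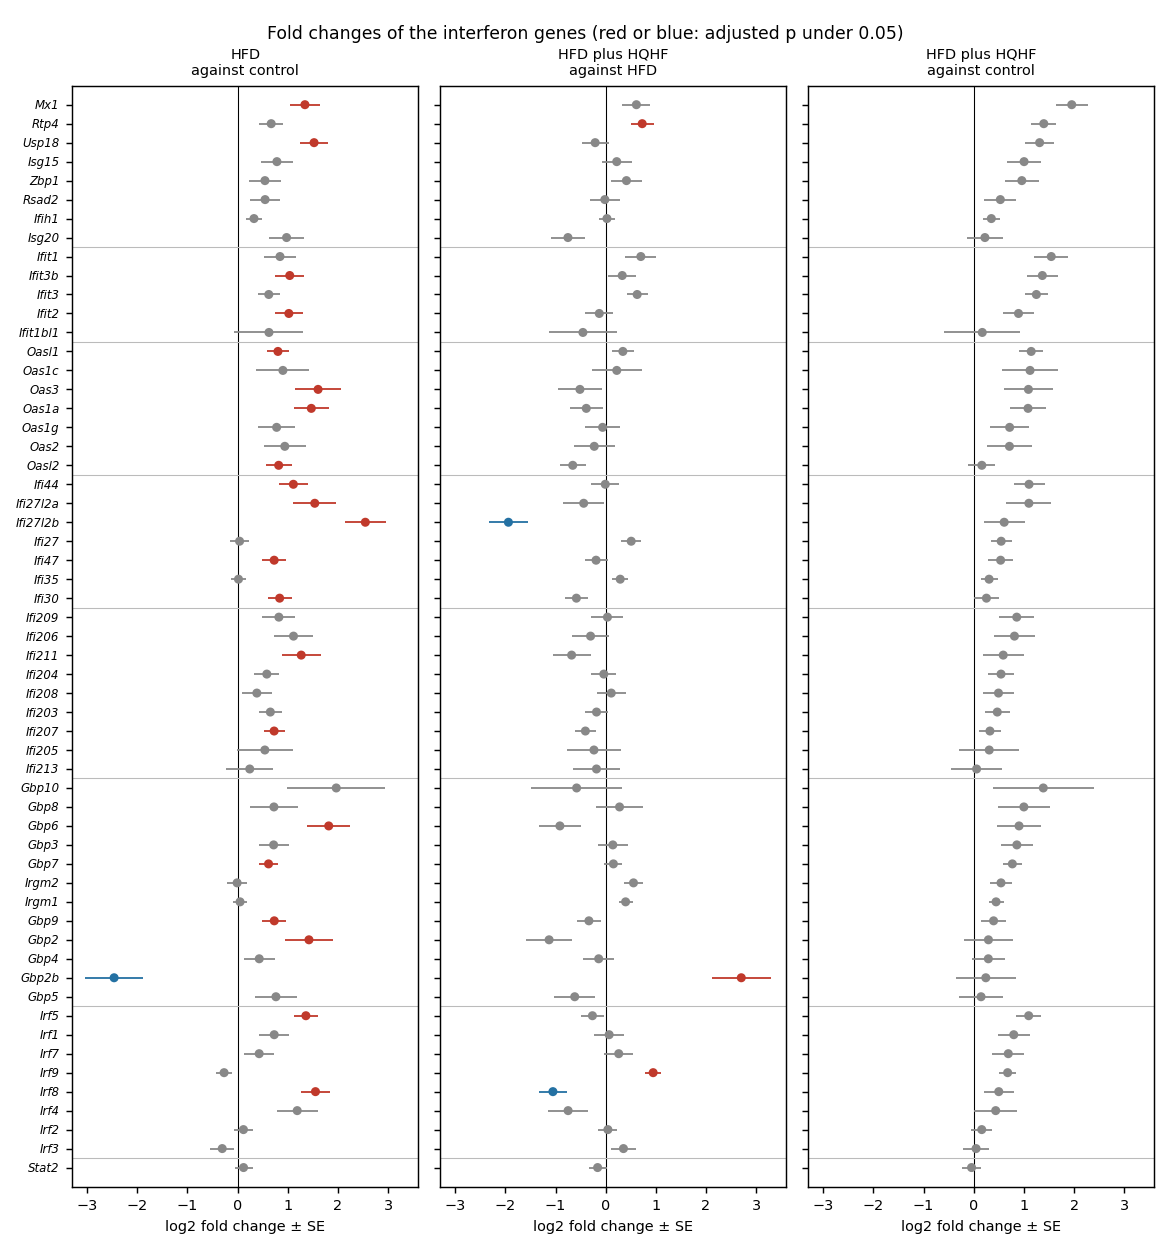
Log2 fold change with 1 SE (x axis) of 57 tested genes (y axis, grouped by class, without the 4 name matches) in the 3 comparisons; red and blue mark genes called higher and lower, grey those not called. In the left panel 21 genes are red and Gbp2b is blue, in the middle panel 3 are red and 2 blue, and in the right panel all are grey although most lie right of 0.

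Treated mice on the high-fat diet were then set against mice on the normal diet. In edgeR, 0% of all tested genes were called higher and 0% lower, so no interferon gene was called either. At an unadjusted p under 0.05 stood 1008 of the 13832 tested genes, among them 23 of the 63 interferon genes. Of 13447 genes with an adjusted p, DESeq2 called 44 higher (0.327%) and 28 lower. Among the 44 were 9 of the 63 interferon genes with an adjusted p: Mx1, Rtp4, Ifit3, Ifit1, Ifit3b, Oasl1, Usp18, Irf5 and Gbp7. Every treated library lay above every control for 27 of the 63 genes (42.9%, against 8.4% of all genes), and below for 1 (1.59%, against 6.72%). The median was 0.54, against 0.02 for all genes, and 58 of 63 values were positive. Plain library totals, which moved the all-gene median only to 0.07, gave a member median of 0.60 and 29 interferon genes without overlap. The share of all genes without overlap on that scaling is not given. The controls are the same libraries as in the diet comparison, so the values of both comparisons are not independent.

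Mx1 ranked 2 by p among all 13832 genes in that edgeR comparison, with 1.92 ± 0.17 CPM (SD, n = 3) after treatment and 0.497 ± 0.13 (SD, n = 3) in control, a log2 fold change of 1.95 ± 0.32 (edgeR adjusted p = 0.228). Rtp4 gave 1.40 ± 0.25 (edgeR adjusted p = 0.228) and Ifit3 1.25 ± 0.23 (edgeR adjusted p = 0.241), at ranks 11 and 12. In DESeq2 the same 3 genes had log2 fold changes of 1.97, 1.40 and 1.25 at adjusted p of 0.000107, 0.00062 and 0.00082. The IFIT family as a whole had the highest class median, 1.25 over 5 tested genes, with Ifit1 at 1.54 ± 0.34 and Ifit3b at 1.37 ± 0.31. The OAS class followed with 1.08 over 7 genes and the antiviral effectors with 0.98 over 8. The medians of PYHIN (0.49 over 9) and of GBP and IRGM (0.49 over 12) were lower. Usp18 gave 1.31 ± 0.29, Irf5 1.09 ± 0.25, Irf9 0.67 ± 0.17 and Irf8 0.50 ± 0.30 (edgeR adjusted p = 0.44, 0.44, 0.467 and 0.747).

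The 12 macrophage markers are given beside these values. In HFD plus HQHF, 10 of the 12 were called lower than in HFD, and against control 0 were called. Their summed level of 80.7 to 106 CPM, which rests mostly on Lyz2, Spp1 and Cd9, was inside the control range. Their median log2 fold change against control was 0.60, close to the 0.54 of the interferon genes, and 3 of the 12 (Trem2, Mmp12 and Ly6c2) lay above every control, with Trem2 at 0.574 to 1.21 CPM against 0.131 to 0.286. The median of the 12 relative to the control mean was 0.58, 0.40 and 0.67 in HFD plus HQHF 1, 2 and 4, -0.20 to 0.34 in control and 2.92 to 3.98 in HFD. Gpnmb, a marker of lipid-laden macrophages, was at 0.154 to 0.919 CPM in control, 54.6 to 177 in HFD and 0.172 to 0.994 in HFD plus HQHF. In HFD plus HQHF 1, 2 and 4 the IFIT family median was 1.45, 1.06 and 1.09 above the control mean on the log2 scale, and in the HFD libraries 1.19, 0.20, 0.75 and 0.80. Markers of plasmacytoid dendritic cells, known for making large amounts of type I interferon, summed to 58.5 to 90.3 CPM in control, 91.2 to 119 in HFD and 64.1 to 71 in HFD plus HQHF. The most abundant of them, Bst2, is itself induced by type I interferon. Without Bst2 the sums were 16.6 to 42.6, 30.6 to 88 and 16.6 to 21 CPM. In control 1, at 42.6, Klk1 made up 23.6 CPM, where the other libraries had at most 0.548. The defining marker Siglech was at 0.254 to 0.436, 0.643 to 1.48 and 0.287 to 0.574. Of 9 stellate cell markers, 6 were called lower after HQHF than in HFD. Kupffer cell markers summed to 354 to 432, 323 to 521 and 403 to 624 CPM, but single markers split. On the diet 4 of the 10 were called lower and 2 higher, and after HQHF 4 were called higher than in HFD and 0 lower. Neutrophil markers summed to 3.33 to 3.62, 6.59 to 19 and 4.34 to 6.66 CPM. Hepatocyte markers summed to 145000 to 174000, 56300 to 100000 and 110000 to 151000. The part of these cells in the treated values was not tested either.

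**Figure D5:**
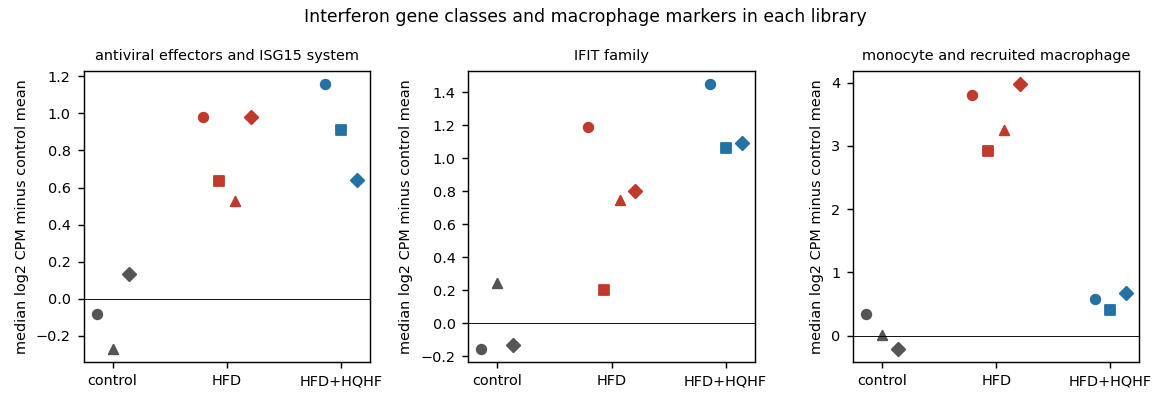
Median log2 CPM minus the control mean (y axes, with different ranges) of the antiviral effectors (8 genes, left), the IFIT family (5 genes, middle) and 12 monocyte and recruited macrophage markers (right); each point is 1 library, grouped on the x axis. The HFD plus HQHF points lie above the controls in all 3 panels, and in the right panel, at 0.40 to 0.67, far below the HFD points at 2.92 to 3.98.

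The counts for the other lists of the pathway stand against 16.3% of all tested genes called higher and 9.89% lower on the diet, and 7.85% higher and 11.1% lower after HQHF against HFD. The interferons themselves were barely detected. Of 21 listed genes 4 were in the table, none had enough reads for a test, and over the 10 libraries Ifnb1 had 0 reads, Ifnk 4, Ifnz 5 and Ifng 17. Among 9 receptor and kinase genes, 4 were called higher on the diet and 1, Ifnar2, lower. Ifnar2, the high-affinity chain of the type I receptor, was at 60, 47.8 and 47.4 CPM in control, 32.1, 30.5, 27.1 and 34.7 in HFD, and 44.9, 40.7 and 50.2 in HFD plus HQHF. The HFD libraries are the lowest 4, and both steps were called (-0.73 ± 0.14 and 0.54 ± 0.14, edgeR adjusted p = 0.00665 and 0.0254). Il10rb, the chain shared by interferon lambda and interleukin receptors, went the other way, 1.62 ± 0.50 on the diet and -1.75 ± 0.50 after HQHF (edgeR adjusted p = 0.0377 and 0.0376). Its levels were 8.61, 4.36 and 2.13 CPM in control, 15, 6.4, 22.4 and 18.3 in HFD, and 5.94, 4.02 and 3.92 in HFD plus HQHF. HFD 2 lay below control 1, so control and HFD overlap. Ifnlr1, the specific lambda chain, had 163 reads over all libraries. It was at 0, 0.0513 and 0.0317 CPM in control, 0.42, 0.257, 0.216 and 1.74 in HFD, and 0.0574, 0.156 and 0.0784 in HFD plus HQHF. HFD lay above control in every library, and HFD 4 far above the other HFD libraries. The mean rose on the diet from 0.0277 to 0.657 CPM (log2 fold change 4.44 ± 1.08, edgeR adjusted p = 0.0155).

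Of 16 tested nucleic acid sensors and adaptors, 9 were called higher on the diet and 1 lower, and after HQHF 0 were higher and 5 lower than in HFD. Ikbke, the kinase that activates IRF3 and IRF7, was at 7.62, 10.2 and 8.95 CPM in control, 29.1, 27.8, 14 and 19.6 in HFD, and 11.7, 10.5 and 8.71 in HFD plus HQHF. The HFD libraries stand above the rest (1.34 ± 0.25 on the diet, -1.13 ± 0.25 after HQHF, edgeR adjusted p = 0.00618 and 0.0143). The adaptor Traf3 (0.75 and -0.87), the DNA sensor adaptor Sting1 (1.26 and -1.16) and the endosomal receptors Tlr7 (1.28 and -0.98) and Tlr9 (1.89 and -1.86) had the same 2 calls. Mavs, the mitochondrial adaptor of RNA sensing, fell on the diet, from 137.8 ± 10.4 CPM (SD, n = 3) to 79.5 ± 3.63 (SD, n = 4; -0.79 ± 0.17, edgeR adjusted p = 0.0096).

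Of 36 other genes known to be induced by type I interferon, 12 were called higher and 1 lower on the diet, and 1 higher (Parp9) and 1 lower (Samd9l) after HQHF against HFD, the last 2 below the shares over all genes. Their median was 0.51 on the diet and 0.49 in treated mice against control. Samd9l, an antiviral regulator of translation, was at 8.69, 8.02 and 7.58 CPM in control, 20.6, 17.4, 18.2 and 22.3 in HFD, and 13.1, 14.1 and 6.46 in HFD plus HQHF. The treated libraries fall on both sides of the controls and all below HFD (1.28 ± 0.24 on the diet and -0.81 ± 0.24 after HQHF, edgeR adjusted p = 0.0064 and 0.0379). Slfn9 gave 1.47 ± 0.29 on the diet (adjusted p = 0.00754). Parp9, partner of a ubiquitin ligase in interferon signalling, was at 52.3, 44.6 and 41.2 CPM in control, 37.4, 33.7, 38.9 and 34 in HFD, and 49.9, 49 and 61 in HFD plus HQHF, 0.57 ± 0.13 above HFD (edgeR adjusted p = 0.0185).

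Of 18 tested genes induced by interferon gamma, 5 were called higher and 1 lower on the diet, and 1 higher and 2 lower after HQHF against HFD. The lower one on the diet, the GTPase Iigp1, was at 172, 165 and 152 CPM in control, 119, 96.9, 77 and 88.5 in HFD, and 154, 162 and 147 in HFD plus HQHF. The HFD libraries are the lowest 4, and the treated libraries overlap the controls (-0.77 ± 0.16 and 0.69 ± 0.16, edgeR adjusted p = 0.00892 and 0.0173). Cd274, the ligand PD-L1, rose by 1.23 ± 0.30 (adjusted p = 0.0159). Nos2 and Ciita were the genes lower after HQHF (-4.44 ± 1.16 and -1.15 ± 0.36, edgeR adjusted p = 0.027 and 0.0471), and Nos2 was at 4.62 CPM in HFD 1 and 0 to 0.827 in the other libraries. Of 12 negative regulators, 2 rose on the diet, about the share over all genes, the nucleotide hydrolase Samhd1 (0.70) and the cytokine inhibitor Socs3 (1.42), and 0 were called after HQHF.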

How the data were processed

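Per the labels' protocols, total RNA was extracted from liver with TRIzol and made into stranded libraries after removal of ribosomal RNA. The deposited table holds whole-number read counts per gene for 12 libraries. HISAT2, RSEM and the build GRCm39 are named in the submitters' processing notes, without version or role. The small RNA table was not used.

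Counts of 10 libraries were fitted together in edgeR 4.0.16 (R 4.3.3) with TMM scaling, filterByExpr by group, robust quasi-likelihood dispersion and Benjamini-Hochberg adjustment over 13832 genes, checked on simulated data. Alternatives were DESeq2 1.42.0, other scalings and filters, all 12 libraries, only the groups compared, a replicate block, and leaving out each library. Every mouse has a separate batch code in the labels, which leaves no batch to model. The members and gene lists were chosen with earlier results of these data known. Values per library are given for a set of members, for the 8 highest and 8 lowest called changes against control at 1 CPM or more, and for the calls after HQHF. Results for some members are not reported here. From each other list the 2 smallest p-values on the diet and all calls after HQHF are named. Promoter windows came from RefSeq, GRCm38.p6. Figures used matplotlib 3.10.9 (Python 3.11.15).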

Additional observations from a re-analysis of the deposited data

Results flagged for a closer look

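In the HFD group of 4 libraries, 1 library stood far from the other 3 for 7 of the 63 tested genes. The rule is set to flag about 5% of groups by chance. It was not run over all tested genes, so no excess among interferon genes is shown. HFD 1 was high for 5 of them. Gbp2 was at 23.5 CPM in HFD 1 and 5.68 to 7.22 in the other 3, Gbp3 at 6.12 against 3.20 to 3.29, Gbp5 at 5.46 against 1.67 to 2.02, Irgm1 at 35.8 against 27 to 28.5, and Irf1 at 55.5 against 22.9 to 26. HFD 4 was low for Irf3, at 19.4 CPM against 29.3 to 29.7, and high for Isg20, at 5 against 2.12 to 2.52.

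The libraries left out held almost no Alb transcript. For some members they reached at least 10 times the highest of the 3 controls used, on a scale fitted over all 12 libraries. Ifi27l2a was at 1790 CPM in control 2 and 299 in HFD plus HQHF 3, against 2.13 to 4.41 in control 1, 3 and 4. Irf4 was at 167 and 30.3 CPM against 0.574 to 0.99. In control 2 alone, Ifi205 was at 70.8 CPM against 0.30 to 0.961 and Ifi211 at 28.3 against 1.64 to 2.36.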

How the results depend on the processing

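The 3 contrasts are called diet (HFD to control), treatment (HFD plus HQHF to HFD) and treated diet (HFD plus HQHF to control). With all 12 libraries edgeR called no member in any contrast (0 higher and 0 lower), and 10, 1 and 5 members lay higher without overlap for diet, treatment and treated diet. The treated diet contrast had 0 called members in every edgeR fit run and 9 higher in DESeq2. Plain library totals gave 54 higher and 53 without overlap for diet, and 1 higher, 25 lower and 2 without overlap for treatment. DESeq2 called 7 higher for treatment, where it called 11.4% of all genes higher, and RLE scaling called 5. Fitting only the 2 groups compared gave 13 higher for diet and 1 lower for treatment. Same-numbered libraries are not paired: of 8 pairs, 1 had a correlation of deviations over 0.1. The replicate block gave 21 higher and 2 lower for diet, 3 and 3 for treatment, and 0 for treated diet. Leaving out each library gave 5 to 27 higher, 0 to 2 lower and 26 to 36 without overlap for diet. For treatment it gave 1 to 4 higher, 1 to 3 lower and 8 to 12 without overlap. For treated diet it gave 0 called and 27 to 41 without overlap. Calls over all genes in these edgeR fits are not set beside these counts.

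Some signs turned. For diet, all 12 libraries turned Ifi27l2a to -5.53 and Gbp2 to -0.27, library totals turned Irf3 to 0.32 and Irf9 to 0.33, and leaving out libraries moved Stat2 from -0.0155 to 0.25 and Irf3 from -0.50 to 0.0534. For treatment, all 12 libraries gave Irf1 -0.00654, Isg15 -0.0149 and Ifih1 -0.14. Library totals gave Irf1 -0.45, Irf3 -0.20, Irf7 -0.28, Isg15 -0.30, Ifih1 -0.52 and Zbp1 -0.12. Ifih1 was -0.00642 with a filter of 1 CPM in 3 libraries and -0.0415 with the replicate block. Leaving out libraries moved Irf1 from -0.0661 to 0.47, Ifih1 from -0.0688 to 0.13, Usp18 from -0.38 to 0.0587 and Isg15 from -0.0860 to 0.48. For treated diet, all 12 libraries gave Stat2 0.0733, Irf3 -0.0595 and Gbp2 -0.39, library totals gave Stat2 0.00383, and leaving out libraries moved Stat2 from -0.16 to 0.0659 and Irf3 from -0.14 to 0.41. The cause of these changes was not tested.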
